A study of Mus musculus with 3 samples.

Results

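The genes described here are 10 transcripts known from neutrophils. They are the alarmins S100a8 and S100a9, the granule genes Ngp, Camp and Ltf that are made early in the life of the cell, and 5 others. These 5, Retnlg, Stfa2l1, Mmp8, Wfdc21 and Prok2, are grouped here as later genes. The 10 genes were taken by name, through Entrez gene IDs, as 10 of the 36530 features of the count tables, and each matched 1 feature. They were measured in single cells of 3 mouse melanomas, 1 untreated, 1 regressed and 1 progressed under vemurafenib, an inhibitor of the mutant Braf kinase. Their levels were followed in the cluster that the authors named Neutrophils, which held 391 untreated, 216 regressed and 4 progressed cells, and in every other cluster.

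All 3 tumors were melanomas of the genetically engineered C57BL/6 model that carries Tyr.CreER and Braf LSL.V600E among its alleles, with or without a Rosa26 LSL.tdTomato reporter. By the study's methods the tumors were induced in young adult mice, and its text sets an untreated tumor beside one taken early under treatment and one that had progressed. Which tumor carried the reporter is not stated in the labels. The Tyr promoter drives CreER in melanocytes, and 4-OH tamoxifen on the skin starts the tumor, so these alleles are not aimed at the immune cells of the host. Each group was 1 tumor, so no difference could be set against a spread between animals and no test between groups was made. All intervals given are exact 95% intervals of the counts and cover counting error only.

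Neutrophils are short-lived white blood cells that leave the bone marrow with their weapons already packed in granules. These granules are filled in a fixed order while the cell matures, primary before secondary before tertiary, and the messages for early granule proteins are mostly switched off before the cell enters the blood. S100a8 and S100a9 differ from these in that they encode the subunits of calprotectin, a calcium and zinc binding complex that fills the cytosol and acts as an alarm signal once released. In tumors, neutrophils can come as mature cells or, when the marrow is under demand, as less mature ones.

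The Neutrophils cluster held 1521063 untreated, 297524 regressed and 7058 progressed UMIs, the tags by which each captured RNA molecule is counted once, and a median of 3257, 1251.5 and 1759.5 UMIs per cell. A set of 6 neutrophil markers outside the 10 genes (Csf3r, Cxcr2, Ly6g, Il1r2, Trem1, G0s2) reached 8019 CPM in untreated and 8134 CPM in regressed Neutrophils, where CPM is UMIs per 1000000 UMIs of the same cells. In the 4 progressed cells they reached 10201 CPM, with Ly6g at 0. Ly6g, the surface protein by which mouse neutrophils are sorted, stood at 486 CPM in untreated and 77.3 CPM in regressed Neutrophils. The regressed library stood apart from the others in haemoglobin RNA (39623 CPM against 2715 untreated and 84.8 progressed). It also differed in Xist (0.403 CPM against 1494 and 1735) and Y-linked genes (221 against 1.40 and 1.74), as in a male mouse beside females. The regressed and untreated tumors thus differed in sex as well as treatment, and the effects of these cannot be told apart. Markers of other cells were also higher in regressed Neutrophils, with macrophage markers at 2588 CPM against 943 untreated, mast cell markers at 807 against 27.6 and red blood cell markers at 2009.9 against 42.1. Fibroblast markers were at 5008 and 4901 CPM. Their part in the differences below was not tested.

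Ngp, Camp and Ltf lie on chromosome 9 within 1.20 Mb of each other, from the first base of Camp to the last of Ltf, and S100a8 and S100a9 lie within 0.0267 Mb on chromosome 3 (GRCm38). The start regions of Ngp, Camp and Ltf are shown because the levels of these 3 genes differed together between the tumors. Each runs from 250 bases before to 50 bases after the gene start in RefSeq (GRCm38.p6), at chr9:110419558-110419857 on the plus strand for Ngp, chr9:109849407-109849706 on the minus strand for Camp and chr9:111019042-111019341 on the plus strand for Ltf. Capitals mark the letters TTGCNNAA, or TTNNGCAA on the other strand, a simple form of the motif of the C/EBP factors, which include Cebpe, a factor known to be needed for secondary granule genes.

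Ngp: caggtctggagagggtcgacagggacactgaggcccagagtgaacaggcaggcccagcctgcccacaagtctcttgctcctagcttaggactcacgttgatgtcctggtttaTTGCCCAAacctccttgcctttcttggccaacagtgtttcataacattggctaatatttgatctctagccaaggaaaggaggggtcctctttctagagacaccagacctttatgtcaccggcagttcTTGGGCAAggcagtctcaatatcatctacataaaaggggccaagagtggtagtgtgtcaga

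Camp: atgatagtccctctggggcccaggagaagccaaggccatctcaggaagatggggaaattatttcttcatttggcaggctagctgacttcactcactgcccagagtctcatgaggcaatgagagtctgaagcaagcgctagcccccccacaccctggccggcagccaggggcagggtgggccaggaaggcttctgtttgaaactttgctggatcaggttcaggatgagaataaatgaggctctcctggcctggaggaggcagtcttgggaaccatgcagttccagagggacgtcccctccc

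Ltf: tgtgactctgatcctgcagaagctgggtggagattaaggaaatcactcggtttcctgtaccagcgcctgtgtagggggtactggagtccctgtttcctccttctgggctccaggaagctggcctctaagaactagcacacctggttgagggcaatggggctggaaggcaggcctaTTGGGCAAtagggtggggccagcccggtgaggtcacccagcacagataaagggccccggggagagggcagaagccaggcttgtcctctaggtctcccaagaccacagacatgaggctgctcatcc

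The letters stood at 2 places in Ngp, with first bases 138 and 11 bases before the start, at 1 place in Ltf, 75 bases before the start, and at 0 places in Camp. Of all 32544 start regions of this length, 10.8% held them. They also occurred once each in the start regions of S100a9, Retnlg and Mmp8, so they did not set the early granule genes apart. The letters GAGGAA, or TTCCTC on the other strand, the core of the motif of PU.1, stood at 1 place in Ltf and at 0 in Ngp and Camp, against 28.1% of all start regions. Such matches describe the letters only. Wfdc21 had no entry, so 9 of the 10 genes were searched.

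The alarmins were the most abundant of the 10 genes in every tumor. S100a8 reached 128561 CPM in the untreated cluster, 54909.9 CPM after regression and 81893 CPM (578 UMIs) in the 4 progressed cells. S100a9 reached 86950.4, 38115 and 33154 CPM in the same order. Together they made up 21.6% of all UMIs of untreated Neutrophils, 9.30% of regressed and 11.5% of progressed ones, and their per-cell share ran from 0.0283 to 47.1% (median 19.7%) in untreated, from 0 to 32.9% (median 8.45%) in regressed and from 0.702 to 24.1% in progressed cells. The distributions overlapped widely, with the regressed cells shifted down as a whole.

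The regressed level was lower than the untreated one by a like factor for both alarmins. The log2 ratio of CPM, regressed over untreated, was -1.23 (-1.25 to -1.20) for S100a8 and -1.19 (-1.22 to -1.16) for S100a9. The number of S100a8 UMIs per 1000 S100a9 UMIs was 1479 in untreated and 1441 in regressed cells, and 2470 in the 4 progressed ones. For the progressed cells over the untreated ones, the log2 ratio was -0.65 (-0.77 to -0.53) for S100a8 and -1.39 (-1.58 to -1.21) for S100a9, and the cells held 85, 422, 8 and 63 UMIs of S100a8. With 4 cells, 1 of which held most of the UMIs, these progressed values describe single cells rather than a population.

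The early granule genes were present in untreated Neutrophils and nearly gone from regressed ones, and the 4 progressed cells held 0 UMIs of them. Ngp, a cystatin-like protein of secondary granules, reached 3465 CPM (5271 UMIs) in untreated Neutrophils, 3.36 CPM (1 UMI) in regressed and 0 in progressed ones. Camp, the precursor of the antimicrobial peptide cathelicidin, reached 1339 CPM (2037 UMIs) in the untreated tumor and 0 UMIs in both treated ones. Ltf, the iron-binding lactoferrin, reached 523 CPM (795 UMIs) in the untreated tumor and likewise 0 UMIs in the treated ones. At the depth of the regressed cluster a count of 0 leaves room for up to 12.4 CPM, and at that of the 4 progressed cells for up to 523 CPM.

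Set against a floor of 3 UMIs over the group, Camp was 133-fold lower and Ltf 51.8-fold lower in regressed than in untreated Neutrophils. The exact upper limits of the log2 ratio were weaker, at -6.75 for Camp and -5.39 for Ltf. For Ngp the log2 ratio was -10.01 (-15.31 to -7.53), and for the sum of the 3 genes -10.63 (-15.93 to -8.15), both resting on the same regressed UMI. Both depend on how the deepest untreated cells are weighed: after thinning cells to 500 UMIs, which left 0 regressed UMIs, the bounds were -5.81 for Ngp and -6.41 for the sum, and without the 13 untreated cells that held 92.5% of the early UMIs the sum had a log2 ratio of -7.01 (-12.32 to -4.53). For the 4 progressed cells the floor puts Ngp 8.15-fold and the sum 12.5-fold lower (exact log2 limits -2.73 and -3.35). These bounds compare pooled UMIs and cannot be read per cell. Without the 13 cells the untreated sum was 433 CPM, under the 523 CPM that a count of 0 allows in the progressed cells, so that with 4 cells a lower level of the early genes was not detectable.

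The 5 genes grouped as later were lower in the regressed tumor too, but by unequal amounts. Retnlg, a resistin-like hormone of granulocytes, had a level of 16803 CPM in the untreated tumor, 2948 CPM in the regressed one and 7934 CPM (56 UMIs) in the 4 progressed cells, a log2 ratio of -2.51 (-2.61 to -2.41) for regressed over untreated. Wfdc21, a small secreted protein of the whey acidic protein family, stood at 5289.7 CPM, 1331 CPM and 0, with a log2 ratio of -1.99 (-2.14 to -1.84). In the progressed cells it was 12.4-fold lower than in untreated ones at the floor of 3 UMIs (exact log2 limit -3.34). Mmp8, the collagenase stored in neutrophil granules, stood at 471 CPM, 131 CPM (39 UMIs) and 0, a log2 ratio of -1.84 (-2.35 to -1.38).

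The 2 remaining genes marked the ends of this range. Prok2, a secreted ligand of the prokineticin receptors, stood at 430.0 CPM in untreated Neutrophils, at 13.4 CPM (4 UMIs in 3 cells) in regressed and at 0 in progressed ones, a log2 ratio of -5.00 (-6.88 to -3.64). Stfa2l1, a stefin that inhibits cysteine proteases, stood at 2598 CPM, 2033 CPM and 567 CPM (4 UMIs), and its log2 ratio of -0.35 (-0.48 to -0.23) was the one nearest to 0 of the 10. Stfa2l1 has close copies in a cluster of stefin genes on chromosome 16, and since reads with 1 place in the genome alone were counted, its level and those of its copies are uncertain. Summed, the 5 genes had a log2 ratio of -1.99 (-2.05 to -1.92), against -1.21 (-1.23 to -1.19) for the summed alarmins.

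Of the 10 genes, 9 were at least 2-fold lower in regressed than in untreated Neutrophils, where 4.93% of the 5887 genes with 20 or more UMIs were lower by that much and 30.1% were higher. The median log2 ratio of all these genes was 0.58, so the scale itself lay above 0. Relative to that median the ratios ran from -0.93 for Stfa2l1 through -1.80 for S100a8, -1.77 for S100a9 and -3.09 for Retnlg to -10.59 for Ngp. Scaled with TMM factors, which shift every ratio by -0.83, all 10 genes were 2-fold or more lower, as were 18.7% of all genes. Among cells thinned to 1000 UMIs, for which 142 of 216 regressed cells were deep enough, 7 of the 10 were, against 6.68% of 2501 genes, and both alarmins lay just inside 2-fold (log2 -0.98 and -0.93). All 80 alternative values of the 10 genes lay below 0.

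**Figure D1:**
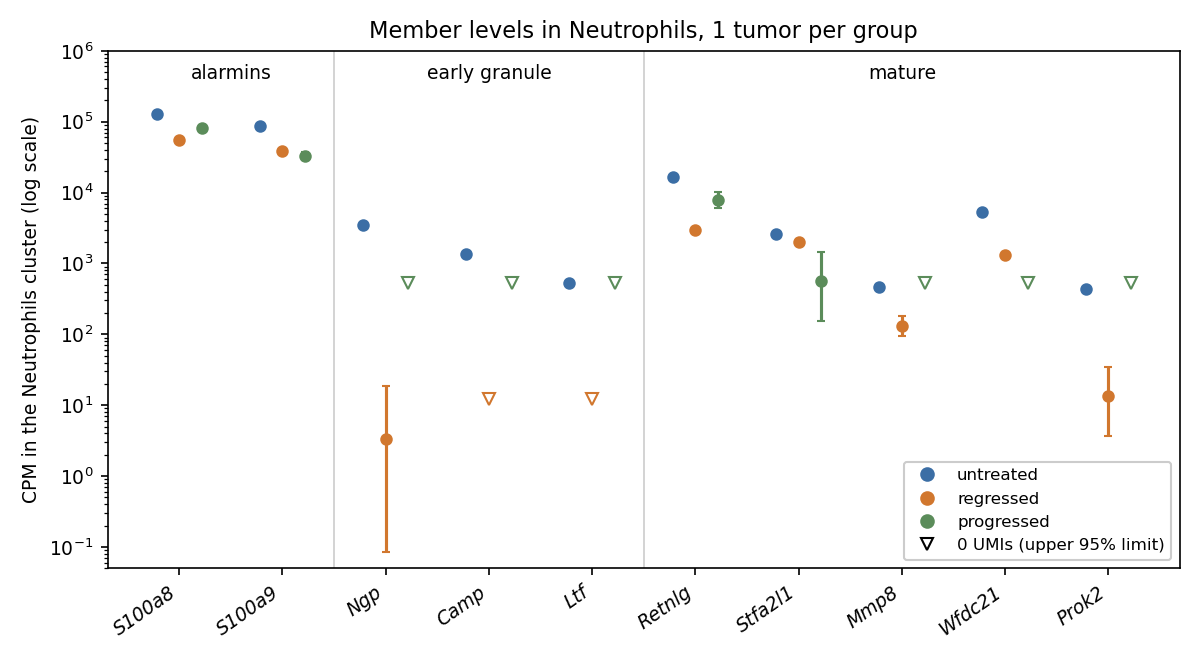
Level of each gene in the Neutrophils cluster of each tumor, in CPM on a log axis, with the exact 95% counting interval as bars (hidden by the point where it is narrow). Open triangles mark the upper 95% limit of a gene with 0 UMIs: the untreated points lie above the regressed ones for all 10 genes, and Camp and Ltf have triangles in both treated tumors.

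How many cells carried each gene depends on depth, so cells were also thinned to 500 UMIs each, which kept all 391 untreated, 209 of 216 regressed and all 4 progressed Neutrophils. S100a8 was then seen in 99.2% of untreated and 93.3% of regressed Neutrophils, and S100a9 in 98.98 and 93.3%. Retnlg was seen in 89.5 and 47.4%, Wfdc21 in 79.5 and 34.4%, Stfa2l1 in 46.8 and 40.2%, Mmp8 in 15.1 and 7.18% and Prok2 in 12.3 and 0.957%. Thus nearly every cell of the cluster held the alarmins in both tumors, while the later genes were spread over fewer cells in the regressed one.

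Early granule genes were held by a minority even in the untreated tumor. After thinning, Ngp was seen in 12.3%, Camp in 3.07% and Ltf in 2.30% of untreated Neutrophils, and any of them in 12.8% (9.64 to 16.5%), against 0 of 209 regressed cells, which allows a share of thinned cells with a UMI of up to 1.44% at a floor of 3 cells (exact upper limit 1.75%). Without thinning the share with any of the 3 was 32.2% in untreated and 0.463% (1 cell) in regressed Neutrophils. In stroma, which should lack these genes and had median depths of 4654, 3151.5 and 4388 UMIs, the thinned share with any early granule gene was 0.799% in the untreated tumor and 0 in both others. The stroma of the untreated tumor also held S100a8 in 15.98% and Retnlg in 3.39% of thinned cells (77.7 and 29.98% without thinning), and a share at or below these is not read as expression in other clusters.

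The balance of early to later genes differed between the tumors far more than the balance of later genes to alarmins. Untreated Neutrophils held 208 (203 to 213) early granule UMIs per 1000 UMIs of the 5 later genes, and regressed ones 0.521 (0.0132 to 2.90), from 1 UMI against 1921. The 4 progressed cells held 0 early UMIs against 60 later ones, which allows up to 50 per 1000 at the floor of 3 UMIs (exact upper limit 63.4). Per 1000 alarmin UMIs there were 119, 69.4 and 73.9 UMIs of the later genes. The untreated ratio of 208 rested on few cells and was 72.3 once the deepest 5% were left out, where the regressed ratio was 0.529.

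**Figure D2:**
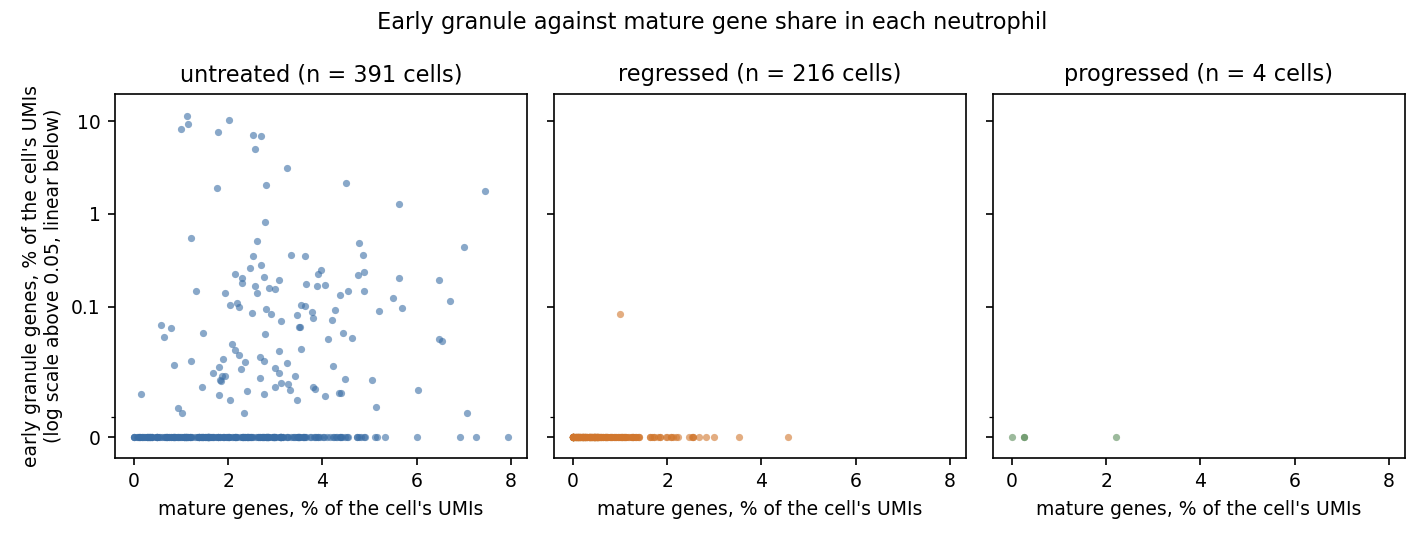
Each point is 1 cell of the Neutrophils cluster, placed by the percent of its UMIs from the 5 later genes (horizontal) and from Ngp, Camp and Ltf (vertical, log scale above 0.05 and linear below). In the untreated tumor a few cells reach up to 11.4% early granule UMIs while most lie at 0, in the regressed tumor 1 cell lies above 0, at 0.0838%, and in the progressed tumor none of the 4 cells does.

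Within the untreated tumor the early granule UMIs were concentrated in 13 of 391 Neutrophils. These 13 cells, with 140 to 1581 early granule UMIs each, held 92.5% of the 8103 early UMIs. Another 33 cells held 5 to 75 of them, 38 held 2 to 4, 42 held 1, and 265 cells (67.8%) held 0. The gap between 75 and 140 UMIs is where the cells were divided, and the division is a range of counts and not a cell type. The 13 cells were also deep, with a median of 9313 UMIs against 2939 in the 265 cells with 0, but by share of UMIs the early genes still made up 1.77 to 11.4% of them.

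Those 13 cells differed among themselves in the order of maturation genes. The cell with the most early UMIs held 909 Ngp, 516 Camp, 156 Ltf and 3 Retnlg UMIs of 13904 in all. A further cell held 202 Ngp, 251 Camp, 9 Ltf and 3 Retnlg UMIs, so that Camp was ahead of Ngp and Retnlg nearly missing. At the other end, 1 cell held 217 Ngp, 9 Camp and 3 Ltf UMIs beside 774 Retnlg UMIs, the highest Retnlg count of the cluster. Retnlg was found in all 13 and Ltf in 12.

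Set against the 265 cells with 0 early granule UMIs, these cells were higher in the alarmins and in some later genes. S100a8 reached 244197 CPM against 105785, a log2 ratio of 1.21 (1.19 to 1.23), and S100a9 166256 against 74154 CPM. Wfdc21 reached 9549 against 4167 CPM (log2 1.20, 1.10 to 1.29) and Mmp8 777 against 363 CPM (log2 1.10, 0.76 to 1.43). Retnlg differed little, with 15612 against 13768 CPM (log2 0.18, 0.11 to 0.25), the interval of Prok2 included 0 (log2 0.43, -0.0011 to 0.84), and Stfa2l1 was lower (log2 -0.96, -1.18 to -0.75). Thus 4 of the 7 genes that did not define the cells were 2-fold or more higher, where 4.7% of 3705 genes were higher and 36.1% lower by that much. Of the 5 genes grouped as later, Stfa2l1 alone was lower, so the grouping is not an order of maturation seen in these cells.

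Other genes of the granule programme were mostly higher in the 13 cells. Of the other secondary granule genes 4 of 5 with 20 or more UMIs were 2-fold or more higher, of the tertiary granule and membrane genes 2 of 5, with 1 lower, and of the oxidase genes 3 of 5. Lcn2, the iron-siderophore binding lipocalin of secondary granules, reached 18423 CPM against 2154 (log2 3.10), Chil3, a chitinase-like protein, 1586 against 25.6 CPM (log2 5.95), and Cd177, a surface protein of granule membranes, 903 against 29.1 CPM (log2 4.96). Cebpe reached 212 CPM (27 UMIs in 6 of the 13 cells) against 8.15 CPM, and Cybb, the catalytic subunit of the phagocyte oxidase, 416 against 16.3 CPM. Among primary granule genes, Mpo, Elane and Ctsg were at 0 in the 13 cells and Prtn3 had 4 UMIs in 2 of them. The cell cycle genes Mki67, Top2a, Birc5 and Cdk1 were also at 0, and Ccnb2 had 2 UMIs in 1 cell. These counts are too low in both classes of cells for a comparison.

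Of the 13 genes of mature and responding neutrophils, 11 were 2-fold or more lower in the 13 cells and 0 higher, with a median log2 ratio of -2.11, where 36.1% of all genes were lower by that much. Fpr1 and Fpr2, receptors for bacterial peptides, were the other 2, with intervals that included 0 (log2 -0.50 and -0.06). Csf3r, the receptor of the growth factor G-CSF, stood at 134 CPM in the 13 cells against 651 CPM in the 265 (log2 -2.29), and Cxcr2, the receptor for chemokines such as that encoded by Cxcl2, had a log2 ratio of -1.06. The cytokine gene Il1b stood at 1932 against 16041 CPM (log2 -3.05), and Ptgs2, which makes prostaglandins, at 15.7 CPM (2 UMIs) against 318 (log2 -4.34, -7.39 to -2.47). Of 4 stefins other than Stfa2l1, 3 were 2-fold or more lower, among them Stfa1 at 15.7 CPM (2 UMIs) against 551 CPM (log2 -5.13, -8.18 to -3.27). The 33 cells with 5 to 99 early UMIs lay between, with Lcn2 at 3612 CPM, Csf3r at 496 CPM and Il1b at 9068 CPM, nearer to the cells with 0 than to the 13.

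**Figure D3:**
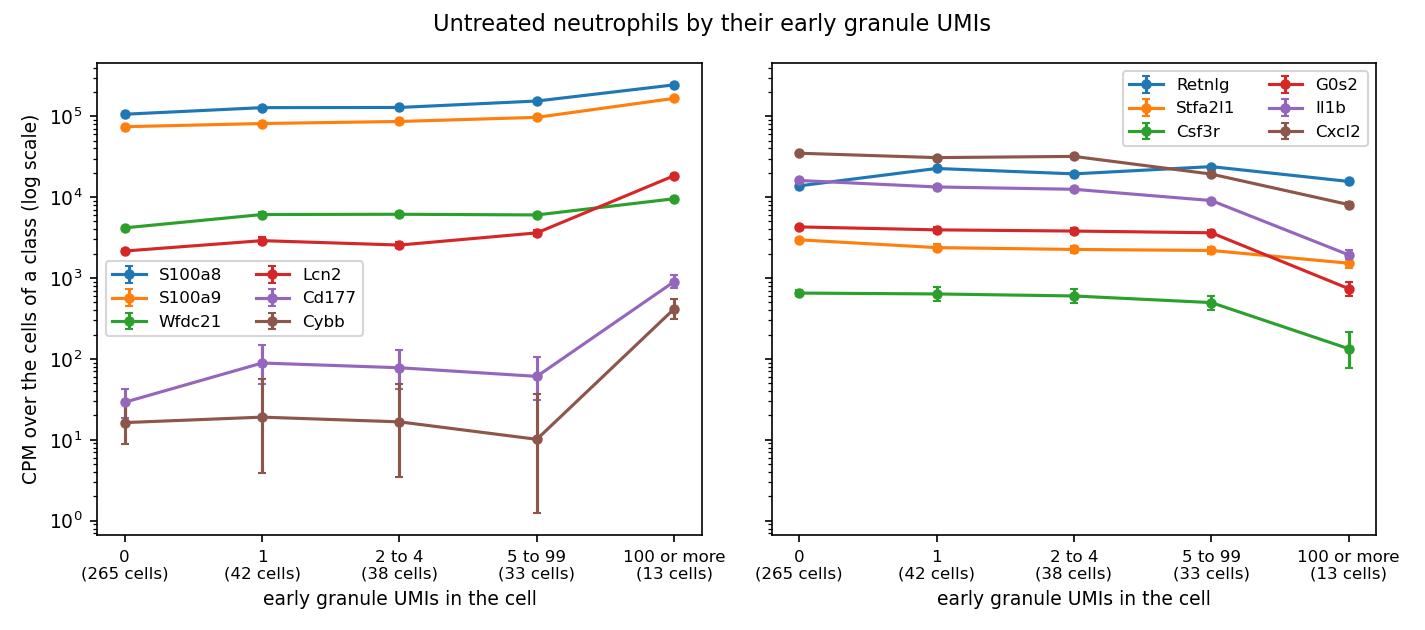
CPM (log axis) of 12 genes in untreated Neutrophils split into 5 classes by their early granule UMIs, with exact 95% counting intervals as bars. The left panel holds genes that are higher in the 13 cells with 100 or more early UMIs (Lcn2 18423 CPM against 2154 in cells with 0), the right panel Retnlg, which is nearly level, and genes that are lower there (Il1b 1932 against 16041 CPM).

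The early granule genes were found together in the same cells. In untreated Neutrophils thinned to 500 UMIs, 48 cells held Ngp, 12 Camp and 9 Ltf. Camp was seen in 20.8% of the cells with Ngp and in 0.583% of those without it, all 9 Ltf cells also held Ngp, and 8 of them held Camp. The later genes were less tied to Ngp: Mmp8 was seen in 25% of Ngp cells and 13.7% of the others, Prok2 in 29.2 and 9.91%, and Retnlg in 93.8 and 88.9%. Stfa2l1 was the exception, seen in 39.6% of Ngp cells and 47.8% of the others.

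Among the later genes the overlap differed from pair to pair. Retnlg and Stfa2l1 were seen together in 163 cells (41.7%), and the product of their shares is 41.9%. Mmp8 and Prok2 were seen together in 4.35% of cells against a product of 1.85%, with Prok2 in 28.8% of Mmp8 cells and 9.34% of cells without it. Mmp8 and Stfa2l1 went the other way, together in 4.35% of cells against a product of 7.06%. Wfdc21 was seen in 96.6% of Mmp8 cells and 76.5% of the others. In regressed Neutrophils Wfdc21 was seen in 73.3% of the 15 cells with Mmp8 and in 31.4% of the others. Without thinning, all 120 untreated cells with Ngp also held Retnlg, but so did 95.6% of the untreated cells without Ngp. Retnlg was thus too widespread for its detection to show whether early and later genes exclude each other. By counts, 1 untreated cell held 229 early granule UMIs beside 774 Retnlg UMIs.

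Outside the Neutrophils cluster S100a8, S100a9 and Retnlg were seen in all 17 other clusters of 20 or more cells of the untreated tumor, while Wfdc21 was at 0 in 1 of them, Ngp in 2, Camp, Ltf and Stfa2l1 in 3 each, Mmp8 in 5 and Prok2 in 8. The authors named the cluster from genes of these same cells, so its excess is a description and not a finding. In the untreated tumor, Neutrophils made up 9.55% of cells and held 94.4% of all S100a8 UMIs, 94.1% of S100a9, 96.3% of Ngp, 96.4% of Camp, 94.3% of Ltf and 93.8% of Retnlg, and least of Mmp8 (86.1%) and Wfdc21 (89.2%). In the regressed tumor they made up 5.80% of cells and held 81.2% of S100a8 and 50.6% of Mmp8 (39 of 77 UMIs). In the progressed tumor, where they were 0.0825% of cells, they held 47.2% of S100a8 (578 of 1225 UMIs) and 33.0% of S100a9 (234 of 710). By flow cytometry the paper reported more CD11b+ Gr1-high myeloid cells in progressed tumors, as a percent of CD45+ cells over several tumors. The share of Neutrophils here is of all cells and rests on RNA, so the 2 measures are not alike. It describes 1 library and is not taken as a trait of progression. All 10 genes were at least 2-fold higher in untreated Neutrophils than in all other cells, a direction in which 6.94% of 15500 genes stood (62.2% were 2-fold or more lower). In the regressed tumor the 6 of the 10 genes with 20 or more UMIs were higher by that much too, against 9.09% of 14985 genes (32.7% lower).

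The level in other cells followed the tumor. S100a8 stood at 564 CPM outside Neutrophils in the untreated tumor, at 312 CPM in the regressed and at 24.0 CPM in the progressed one, and Retnlg at 82.2, 14.5 and 0.260 CPM. Over the 17 other clusters with 20 or more cells, the median S100a8 level was 382, 307 and 2.73 CPM, with the lowest at 312 in the untreated (Stroma8), 80.8 in the regressed (Stroma4) and 0 in the progressed tumor. Ngp and Camp were at 0 in all 17 other clusters of the regressed tumor, and Ngp had a median of 9.94 CPM over those of the untreated one. The share of Neutrophils and the level in other cells thus went in the same order over the 3 tumors. The source of this level was not tested.

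The ratios of the genes to S100a9 in other clusters were compared with those in Neutrophils of the same tumor. Among 20 untreated clusters with 20 or more S100a9 UMIs, the interval of the ratio held the Neutrophils value for Ltf and Prok2 in all 20, for Mmp8 in 18, for Camp and Wfdc21 in 17 and for Ngp and Retnlg in 16. Stfa2l1 held it in 12, and S100a8 in 8, with 11 below and 1 above. Among 14 regressed clusters S100a8 held it in 8 too, but with 6 above and 0 below. Its departures thus ran mostly below the Neutrophils value in the untreated tumor and above it in the regressed one. For genes with few UMIs these intervals are wide, so that a ratio within them is not shown to be equal. Monocytes1 departed most for Mmp8 and Wfdc21.

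**Figure D4:**
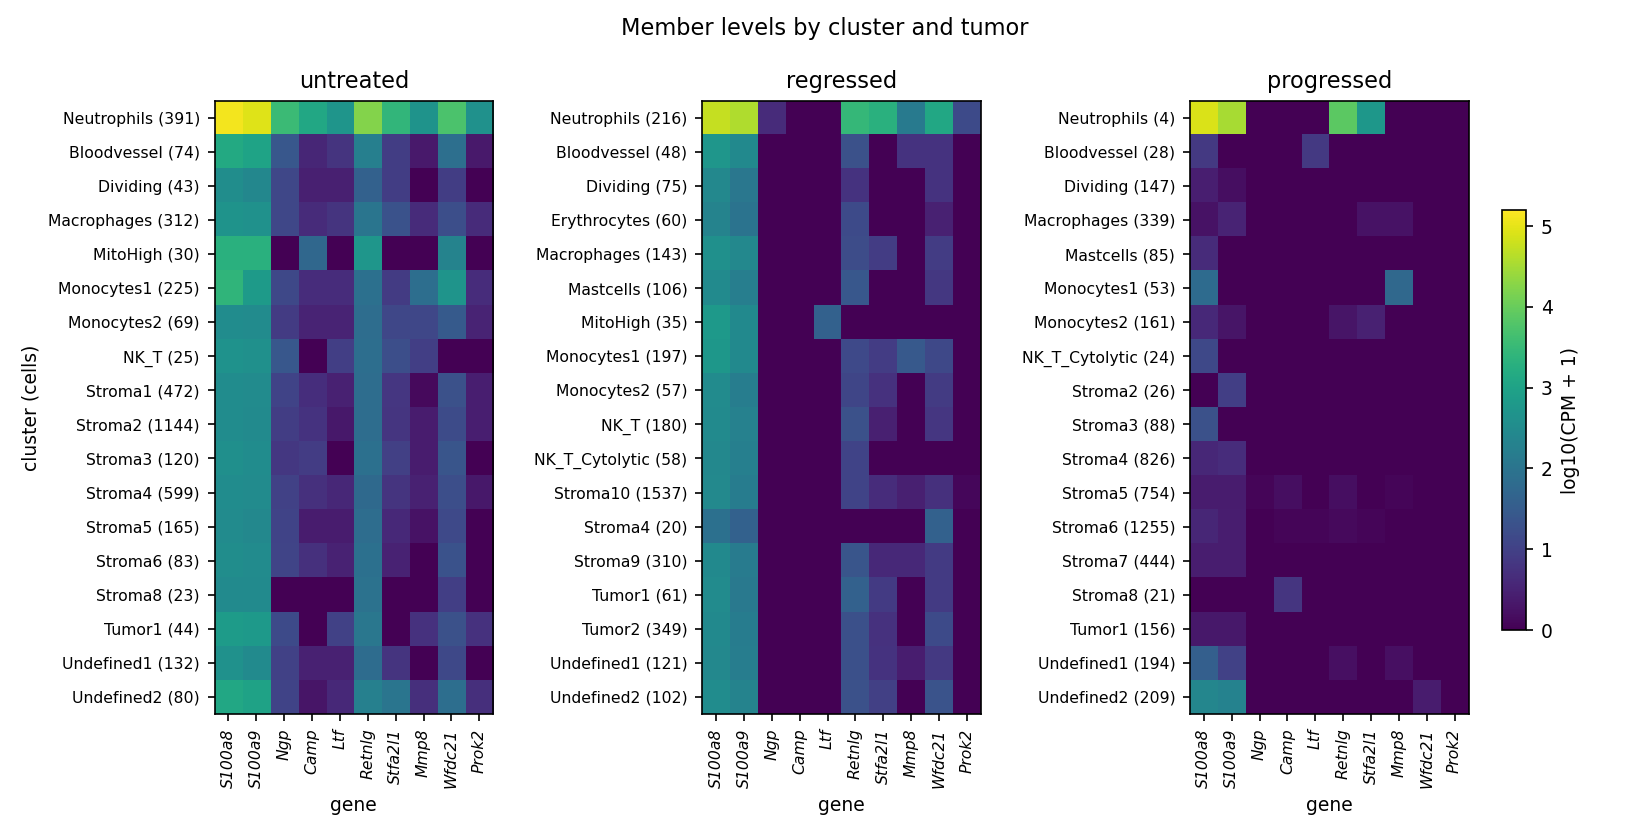
Level of each gene (columns) in each cluster of 20 or more cells and in Neutrophils (rows, number of cells in brackets) of the untreated, regressed and progressed tumor, as log10(CPM + 1) in color. Neutrophils form the bright top row, S100a8 and S100a9 are seen across all clusters of the untreated and regressed tumors, and in the progressed tumor they stand out in Undefined2 (248 and 202 CPM) while Mmp8 stands out in Monocytes1.

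Monocytes1 held Mmp8 and S100a8 beyond these proportions in the untreated and regressed tumors, and Wfdc21 in the untreated tumor. For S100a8 in the regressed tumor this was not particular to Monocytes1. Per 1000 S100a9 UMIs it held 1958 of S100a8 (1670 to 2300), all stroma clusters 1919 (1773 to 2079) and Neutrophils 1441. In its 225 untreated cells S100a8 stood at 2506 CPM, Wfdc21 at 495 CPM (556 UMIs in 83 cells) and Mmp8 at 73.9 CPM (83 UMIs in 44 cells), which per 1000 S100a9 UMIs is 3725, 735 and 110, against 1479, 60.8 and 5.41 in Neutrophils. Retnlg, at 82.8 CPM, and Stfa2l1 were below the proportion of Neutrophils. The 6 neutrophil markers were also seen where Neutrophils were few. In the progressed tumor, with 4 Neutrophils, 25.9% of all other cells and 26 of 53 Monocytes1 cells held a UMI of them. Such a UMI thus cannot be taken as RNA of a neutrophil. The 70 untreated cells without any UMI of the 6 neutrophil markers were shallower than the other 155 (median 2502 against 5331 UMIs), with Mmp8 at 67.0 CPM (38.3 to 109) and Wfdc21 at 193 CPM. S100a8 stood at 1026 CPM beside S100a9 at 532 CPM in them, against 2506 and 673 CPM in the whole cluster, so the excess of S100a8 over S100a9 was smaller. In regressed Monocytes1 Wfdc21 had 42.4 UMIs per 1000 of S100a9 (20.1 to 79.3), an interval that holds the 34.9 of Neutrophils, and in progressed Monocytes1 it had 0 UMIs. Inflammatory monocytes are known to express S100a8 and S100a9.

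In the untreated tumor the monocytes with Mmp8 held more of some genes known from inflammatory monocytes. The 44 untreated cells with an Mmp8 UMI had S100a8 at 5027 CPM against 1559 CPM in the other 181, Ly6c2, a surface marker of these monocytes, at 1218 against 535 CPM, Plac8 at 5404 against 3274 CPM and lysozyme (Lyz2) at 11499 against 5659 CPM, while Retnlg was at 78.2 against 84.5 CPM and Ccr2, the chemokine receptor of these monocytes, at 984 against 970 CPM. The cells with Mmp8 were deeper, with a median of 6864.5 UMIs against 4323. In the regressed tumor Mmp8 stood at 27.9 CPM (23 UMIs in 17 of 197 cells). There the cells with Mmp8 were lower in S100a8 (285 against 594 CPM) and had Ccr2 at 1299 against 1591 CPM. They were higher in Ly6c2 (615 against 223 CPM), Plac8 (3315 against 1434 CPM) and Lyz2 (16588 against 8999 CPM). The untreated pattern thus did not hold for S100a8. These cells were deeper too, with a median of 5476 against 4034 UMIs. In the progressed tumor Mmp8 stood at 56.3 CPM (14 UMIs in 10 of 53 cells). The 10 cells had Ly6c2 at 1665 against 1089 CPM in the other 43, Plac8 at 8561 against 6369 CPM and Lyz2 at 31527 against 17911 CPM. Their median depth was 5652 against 3520 UMIs. These 10 progressed cells held 0 UMIs of S100a8, S100a9 and Retnlg, and the progressed Neutrophils held no Mmp8, so that 14 of the 17 Mmp8 UMIs of that tumor lay in Monocytes1.

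Undefined2, a cluster rich in keratins, held the alarmins in the progressed tumor almost without the other 8 genes, of which Wfdc21 had 3 UMIs and 7 had 0. Its 209 progressed cells held 518 S100a8 and 422 S100a9 UMIs, in 21 and 19 cells, and these were 518 of the 647 S100a8 UMIs outside Neutrophils. Just 5 cells, with 20 or more alarmin UMIs each, held 489 and 372 of them. Keratinocyte markers stood at 31769 CPM in these 5 cells and at 36809.9 CPM in the other 204, and the 6 neutrophil markers summed to 1 UMI (11.7 CPM) in the 5 cells and to 132 CPM in the others. The highest of them held 226 S100a8 and 228 S100a9 UMIs with 408 keratinocyte marker UMIs. Keratinocytes are known to switch on both genes under stress.

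In the untreated tumor the same cluster was less clear. Its 80 cells held S100a8 at 1304 CPM, of which 74.7% lay in 3 cells with 574, 210 and 196 UMIs. The cell with 574 held 37 neutrophil marker UMIs and 196 keratinocyte marker UMIs, the one with 196 held 1 and 1002. Bloodvessel cells of that tumor likewise held S100a8 at 1447 CPM, 80.0% of it in 3 of 74 cells. No doublet caller was run, and what these cells hold was not tested.

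The other genes of the granule and maturation programme differed widely between regressed and untreated Neutrophils. Of 6 other secondary granule genes, 5 had 20 or more UMIs. While 4.93% of all genes were at least 2-fold lower in regressed than in untreated Neutrophils, 3 of these 5 were. These were Lcn2 (3829.6 to 528 CPM, log2 -2.86, -3.10 to -2.63), Chil3 (log2 -4.50, from 2 regressed UMIs) and Itgb2l, an integrin, which had 45 UMIs against 0. At the floor of 3 UMIs Itgb2l was 2.93-fold lower (exact log2 limit -1.20). Hp, which encodes haptoglobin, stood at 1696 and 1664 CPM and Olfm4 at 32.9 and 37.0 CPM. The median of the list was -1.55, against 0.58 for all genes. The list of 5 primary granule genes had 33 UMIs in untreated and 4 in regressed Neutrophils, and 1 gene, Prtn3, had enough to compare, with an interval that included 0 (log2 -2.50, -7.86 to 0.09).

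Of 5 tertiary granule and membrane genes with enough UMIs, Cd177 alone was 2-fold or more lower (log2 -3.14, 4 regressed UMIs), as were 4.93% of all genes. Mmp9, the gelatinase of tertiary granules, had a log2 ratio of -0.24 (-0.50 to 0.01), Anxa1, an anti-inflammatory annexin, -0.81, and Itgam, the CD11b integrin, 0.62. Of 5 oxidase genes, Cybb alone was 2-fold or more lower (log2 -2.29, 3 regressed UMIs), with the list median at 0.07. Of the 5 stefins other than Stfa2l1, Stfa3 and Csta1 were 2-fold or more lower, the latter with an interval that included 0, and the median was -0.91.

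Of the 13 genes of mature and responding neutrophils, 0 were 2-fold or more lower and 2 were higher, Ptgs2 (246 to 968 CPM, log2 1.98) and Cxcr2 (447 to 904 CPM, log2 1.02). Of all genes 4.93% were lower and 30.1% higher by that much, so the share that was higher is no larger than over all genes. The median of the 13 was -0.11, below the 0.58 of all genes, with 6 intervals below 0 and 5 above. Csf3r stood at 579.9 and 799.9 CPM (log2 0.46), Il1b at 13256 and 11303 CPM (log2 -0.23) and G0s2, an inhibitor of lipolysis, at 3807 and 3196 CPM (log2 -0.25). Among 7 other S100 genes, S100a4 (log2 1.37), S100a10 (log2 2.13) and S100a16 (log2 1.02) were 2-fold or more higher, S100a6 was lower with a log2 ratio of -0.88, and the median was 0.62, near that of all genes.

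Among the 6 transcription factors of granulocyte formation, Cebpe had 25.6 CPM (39 UMIs) in untreated and 23.5 CPM (7 UMIs) in regressed Neutrophils, a log2 ratio of -0.12 (-1.53 to 1.05). Cebpb, a factor of granulocyte formation under demand, was at 199.9 CPM in the untreated cluster, 6157 CPM in the regressed and 567 CPM (4 UMIs) in the progressed one, a log2 ratio of 4.95 (4.77 to 5.13) for regressed over untreated. It was also higher in all other cells of the regressed tumor, at 451 against 73.4 CPM (log2 2.62). Cebpa was higher as well (log2 3.16, 14 against 8 UMIs). The receptors listed for the secreted genes differed in level in Neutrophils. Fpr2 stood at 248.5 CPM (378 UMIs) in the untreated and 168 CPM (50 UMIs) in the regressed tumor (log2 -0.56, -1.02 to -0.14). Tlr4, a receptor of the alarmins, stood at 25.6 and 40.3 CPM (log2 0.65, -0.42 to 1.62). Prokr1 and Prokr2, the receptors of Prok2, were at 0 in all 3 tumors.

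**Figure D5:**
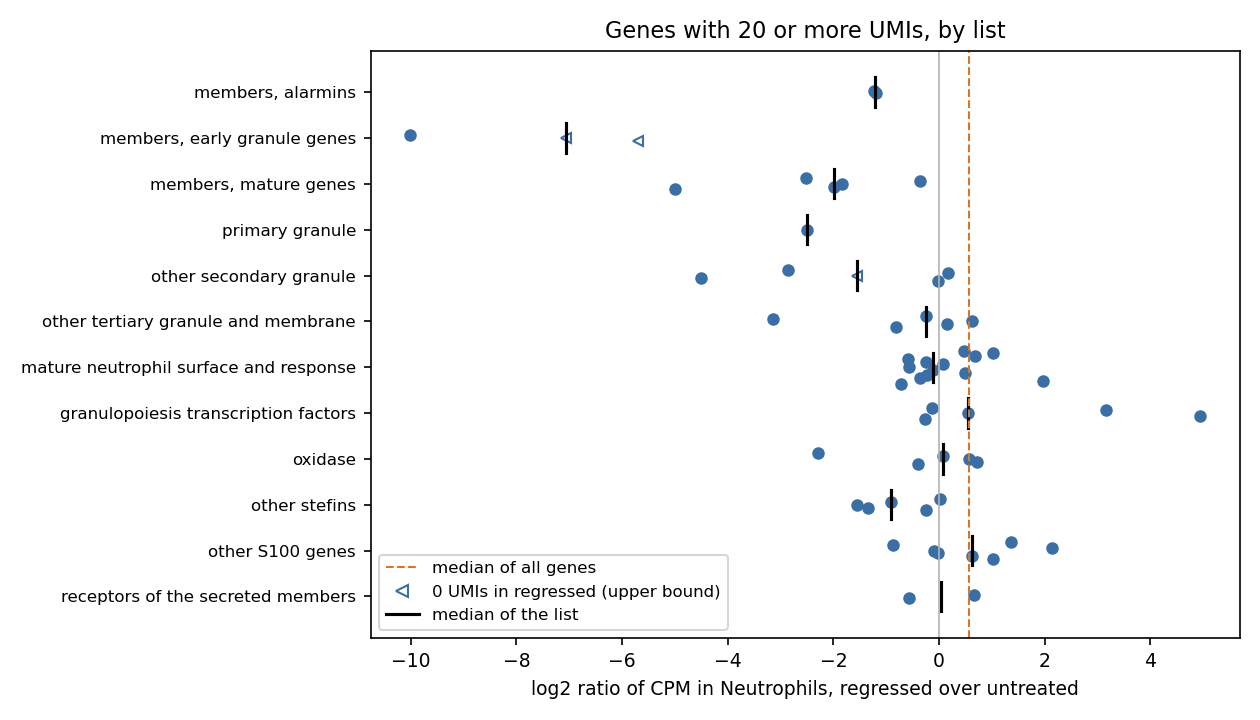
Log2 ratio of CPM in Neutrophils, regressed over untreated, for each gene with 20 or more UMIs (points), by list, with the median of each list (black bar) and of all 5887 genes (dashed line, 0.58). Open triangles are upper bounds of genes with 0 regressed UMIs. The early granule genes lie farthest to the left, while the genes of mature and responding neutrophils lie around their median of -0.11 and Cebpb lies at 4.95.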

How the data were processed

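Cells of 3 mouse melanomas, 1 each labelled untreated, regressed and progressed under vemurafenib, were profiled with a droplet kit that reads 3' ends, so 1 UMI stands for 1 molecule whatever the gene length. According to the study's methods and the submitters' processing notes, the authors aligned reads to GRCm38 with GSNAP, counted uniquely mapped sense reads on exons, left out cells under 300 UMIs and clustered with Seurat 2.2.0. The annotation release is not given in the sources used here. The deposited tables hold UMI counts per gene and cell, and the deposited cell table holds labels (unit other) and the authors' total counts, which the table sums exceeded by 4.42 to 6.09%. Of 36530 features, 31049 were matched to symbols in RefSeq (GRCm38.p6), and 133 of 134 list and marker genes. No cell ID occurred in more than 1 library (0 shared).

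The 10 genes and all lists were chosen with earlier results of these data known. Counts were summed per tumor and deposited cluster and given as CPM (python 3.11.15, numpy 2.4.6, pandas 2.3.3, scipy 1.17.1), with exact Poisson intervals, Clopper-Pearson intervals for shares and conditional binomial intervals for ratios. Counts of 0 were set to 3 UMIs over the group for bounds. With 1 tumor per group no test was made and cells were not used as replicates. Genes were compared from 20 UMIs over both tumors and called at 2-fold. Shares were taken after thinning cells to 500 UMIs (seed 7), since they rise with depth. Genes named are the 10, genes of the lists with 20 or more UMIs, and the 10 genes most like the members over clusters of 20 or more cells; the monocyte genes Plac8, Lyz2 and Ccr2, and low-count list genes given at 0, were named after their values were seen. The methods name no doublet removal and no caller was run, and dropping the deepest 5% of each cluster was an alternative. edgeR 4.0.16 gave TMM factors on the deposited counts and no test. Intervals and thinning were tested on simulated data. One allele of the mouse model is not reported here.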

Additional observations from a re-analysis of the deposited data

How the results depend on the processing

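No paired analysis was possible because each group held 1 tumor. Of 202 alternative values, 88 moved beyond the counting interval of the value they stand beside and 114 did not. Among the log2 ratios 0 changed direction, and for the other values a change of direction was not assessed. Depth limits the progressed cells most, since 4 cells with 7058 UMIs leave any gene at 0 room for 523 CPM. Leaving out every cell with a marker UMI of another cell type left 2 untreated and 0 regressed or progressed Neutrophils, so it gave no ratio between tumors. In its place the 98 untreated and 54 regressed cells with the highest share of such UMIs were left out, an alternative chosen after seeing the data, as was leaving out the deepest cells outside Neutrophils. The causes of the moves were not tested.

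The log2 ratio of the early sum (-10.63) was -6.41 after thinning to 500 UMIs, -7.53 without Ngp, -7.05 as the median of the genes and -7.01 without the 13 untreated cells with 100 or more early UMIs (added after seeing the data). That of the later genes (-1.99) was -2.82 with TMM factors, -1.91 with equal weight per cell, -1.87 without the deepest 5%, -1.32 without Retnlg and -2.38 without Stfa2l1. That of the alarmins (-1.21) was -2.04 with TMM factors, -1.07 both with equal weight and after thinning to 500 UMIs, -0.96 after thinning to 1000, -1.03 without the deepest 5% and -1.19 for S100a9 alone. Early UMIs per 1000 later ones in untreated cells (208) were 92.8 with equal weight, 98.8 and 89.8 after thinning to 500 and 1000, 72.3 without the deepest 5%, 15.6 in the 2 marker-free cells, 251 without the 98 cells, 72.8 without Ngp and 606 without Retnlg, and in regressed cells 0 after thinning to 500 and 0 without Ngp.

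The untreated share with an early UMI (12.8%) was 32.2% unthinned, 19.8% at 1000 UMIs and 6.91% for 2 or more UMIs. Ngp with Camp (2.56%) was 5.88% unthinned. S100a8 with Retnlg was 96.9% unthinned and 93.5% at 1000 UMIs in untreated cells (89.5%), and 61.1 and 62.0% in regressed ones (46.9%). Without the deepest 5%, the share of UMIs inside Neutrophils was 93.9% for S100a9 and 90.9% for Ngp in the untreated tumor, 82.7% for S100a8, 86.0% for S100a9 and 86.4% for Retnlg in the regressed one, and 53.5% for S100a8 and 40% for S100a9 in the progressed one. Outside Neutrophils, without cells holding a neutrophil marker UMI, S100a8 was at 386, 294 and 28.1 CPM in untreated, regressed and progressed cells and S100a9 at 346, 157 and 23.0 CPM. After thinning to 500 UMIs, S100a8 was at 524, 324 and 8.67 CPM, and S100a9 at 195 CPM in regressed and 7.02 CPM in progressed cells. Without the deepest 5%, S100a8 was at 533 CPM (untreated) and 21.2 CPM (progressed), and S100a9 at 14.8 CPM (progressed). With no minimum on UMIs, 2.67% of all genes were 2-fold or more lower and 35.9% higher, and with 50 or more UMIs 21.1% were higher.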

Other observations

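The 10 genes outside the members whose pattern was most like their mean over 53 groups, each 1 cluster of 20 or more cells in 1 tumor, were Acod1 (Pearson r 0.844), Cstdc4 (0.837), Slpi (0.820), Cxcl3 (0.790), Trem1 (0.786), Cxcl2 (0.775), Hp (0.761), Mirt2 (0.757), Stfa2 (0.753) and Amer2 (0.752), among 15952 genes compared on log2(CPM + 1). The groups of a tumor share its library and depth, and r is a description. In Neutrophils, Stfa2 stood at 581 CPM in the untreated and 309 CPM in the regressed tumor and Cxcl2 at 29815 and 18076 CPM, whereas Acod1, which makes itaconate, stood at 954 and 746 CPM, and Slpi, a protease inhibitor, at 5089 and 4074 CPM. Cstdc4, a cystatin-domain gene, stood at 2837 and 2215 CPM, close to the levels of Stfa2l1.

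Among the members themselves, over the same 53 groups, r was 0.943 for S100a8 with S100a9, 0.811 for Ngp with Ltf and 0.751 for Ngp with Camp, and 0.803 for Ngp with Prok2. The neutrophils with few alarmin UMIs were a further group of cells. Alarmins lay under 10000 CPM in 5 of 391 untreated, 21 of 216 regressed and 1 of 4 progressed Neutrophils. In the 21 regressed cells the 6 neutrophil markers summed to 2748 CPM against 8936 CPM in the other 195, and in the 5 untreated cells to 4861 CPM against 8039 CPM. Markers of eosinophils and basophils stood at 306 CPM in regressed Neutrophils (91 UMIs in 13 cells) and at 47.3 CPM in untreated ones (72 UMIs in 21 cells), with Prg2 and Epx, which encode eosinophil granule proteins, at 0 in both.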
